A study of Mus musculus with 6 samples.

Results

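Cathepsins are the proteases with which macrophages break down proteins in the lysosome, the acidic compartment that also receives engulfed fungi. Transcripts of 10 cathepsin genes were compared between macrophages from wild type (WT) mice and macrophages from mice without progranulin (PGRN KO) after challenge with Candida albicans. The 10 genes were taken by name from the 54532 genes of the deposited expression table. They comprise 8 cysteine proteases (Ctsb, Ctsc, Ctsf, Ctsh, Ctsk, Ctsl, Ctss and Ctsz), 1 aspartic protease (Ctsd) and 1 serine protease (Ctsa).

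Both groups were labelled as peritoneal macrophages of the C57BL/6J strain, plated at 2000000 cells per well and exposed to the fungus for 6 hours at 1 fungal cell per macrophage. There were 3 WT libraries (replicates 1, 2 and 3) and 3 libraries labelled progranulin knock out (replicates 4, 5 and 6), and no unchallenged library was analysed here. Titles of the WT libraries add the word control, while the labels give both groups the same exposure. The labels give neither the age of the mice nor the progranulin allele, and nothing says whether the 3 libraries of a group came from separate mice, so that p-values measure only the spread between these libraries. According to the methods of the study, knockout and WT mice came from different suppliers, and hence genotype and source of the mice cannot be told apart. The methods also name bone marrow-derived macrophages as the cells sequenced, grown in conditioned medium, whereas the labels name the peritoneal cavity, and the paper gives another ratio of fungus to macrophages for the sequenced cells than the labels. Macrophage markers were high in all libraries, with Cd68 at 1103 to 1344 FPKM (fragments per kilobase of gene model, scaled by a factor for each library). Adgre1, which encodes F4/80, was at 162 to 195 FPKM. Of the markers of resident large peritoneal macrophages, Gata6 was at 3.78 to 5.07 FPKM and Icam2 at 2.94 to 5.43 FPKM. Timd4 was at 0 to 0.204 FPKM and Selp at 0 to 0.120 FPKM, so that the tissue of origin was not settled by these genes.

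Cathepsins are made as inactive precursors, tagged with mannose 6-phosphate, carried to the lysosome by sorting receptors and activated there by removal of a propeptide. Cystatins and some serpins hold the cysteine cathepsins in check outside the lysosome or within it. Progranulin, the product of Grn, is delivered to the lysosome as well, in part together with prosaposin, and is cut there into granulins by cathepsins.

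The libraries held 15996786 to 17551619 counted fragments. Grn was at 323 to 337 FPKM in WT and at 0 to 0.0167 FPKM in PGRN KO, which matched the label of each of the 6 libraries. PGRN KO replicate 6 stood apart from replicates 4 and 5 in a way that followed the length of the gene models. Of 8882 genes with a mean of at least 1 FPKM, 24.2% differed between genotypes (limma, adjusted p under 0.05), 10.4% being higher and 13.8% lower in PGRN KO. Without PGRN KO replicate 6 these shares were 15.9% and 25.1%.

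All cathepsin members except Ctsf reached a mean of 1 FPKM, so that 9 of the 10 were tested. Of these, 4 rose in PGRN KO (Ctsd, Ctsk, Ctsa and Ctsb), 1 fell (Ctsc) and 4 did not pass the threshold (Ctsz, Ctsl, Ctsh and Ctss). The 4 members that rose stood against the background of 10.4%, and the single member that fell against 13.8%. For 6 of the 9 tested members the genotypes were without overlap, which compares with 48.8% of all tested genes. The median log2 fold change was 0.40 over the 9 members and -0.031 over all tested genes. Without PGRN KO replicate 6 the numbers of members that rose and fell were also 4 and 1, involving the same genes, whereas the median of the 9 was 0.17. The number that rose was 0, 1 and 2 without WT replicates 1, 2 and 3, respectively. The shares of all tested genes called in these fits were not counted. In the fit without WT replicate 1, 4 members were higher at an unadjusted limma p under 0.05. For that threshold, too, no share of all tested genes was counted.

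**Figure D1:**
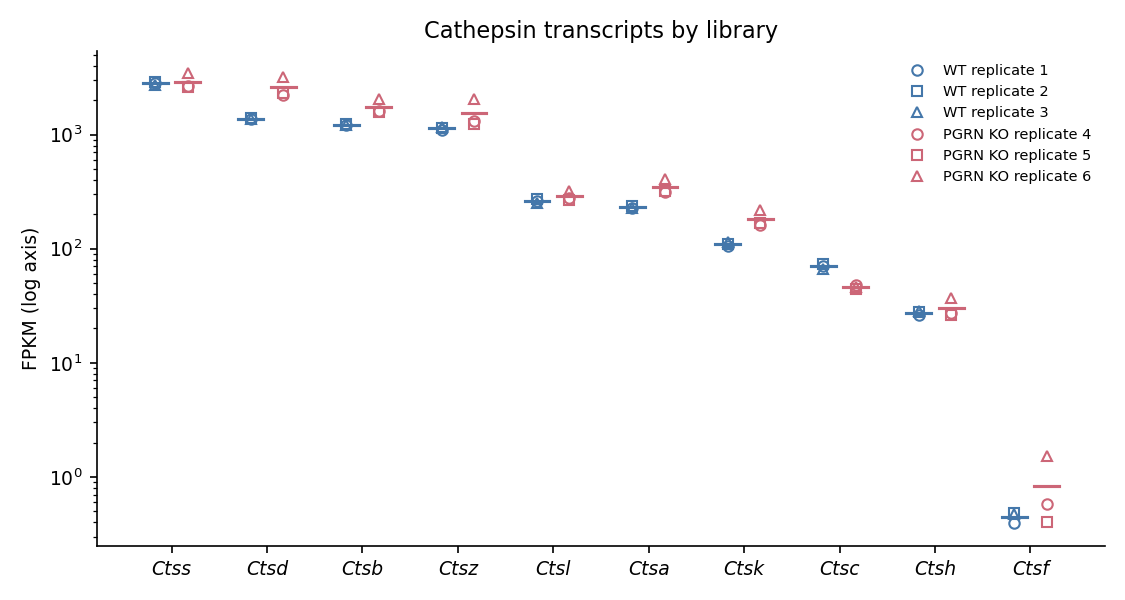
FPKM of the 10 cathepsins on a log axis, ordered by their WT mean. Each symbol is 1 library and each bar is the mean of 3 libraries of a genotype. WT libraries lie close together, PGRN KO replicate 6 (upward triangles) is the highest PGRN KO library for every gene but Ctsc, and Ctsc is the member whose 3 PGRN KO values all lie below WT.

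The aspartic class was represented by Ctsd (ENSMUSG00000007891, chromosome 7, 142375911 to 142388038, GRCm38), which encodes cathepsin D, the main aspartic endopeptidase of the lysosome. Ctsd was at 1369, 1389 and 1358 FPKM in WT replicates 1, 2 and 3 while PGRN KO replicates 4, 5 and 6 held 2239, 2328 and 3207 FPKM. All PGRN KO libraries were thus above all WT libraries, replicate 6 being the highest. The mean rose 1.89-fold, from 1372 ± 15.7 to 2592 ± 535 FPKM (SD, n = 3 each), and 1.66-fold when replicates 4 and 5 alone were set against WT. By limma, the log2 fold change was 0.90 ± 0.16 (SE) and the adjusted p 0.00988. This was the largest increase among the tested members. The call was lost without WT replicate 1 (adjusted p 0.0552) and without a filter on low values (0.0548), and adjusted p was 0.000143 to 0.0552 over all 17 alternatives. The overlapping protein-coding model Gm49369 shares 33.2% of the 31-base words of Ctsd, but it was at 0 to 0.169 FPKM.

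The serine class was represented by Ctsa (ENSMUSG00000017760, chromosome 2, 164832873 to 164841032), a carboxypeptidase that also protects the glycosidases Neu1 and Glb1 in a lysosomal complex. Ctsa was at 226, 237 and 226 FPKM in WT and at 313, 321 and 410 FPKM in PGRN KO. The groups were separate, and the mean rose 1.51-fold from 230 ± 6.06 to 348 ± 53.9 FPKM (limma, log2 fold change 0.59 ± 0.13, adjusted p 0.0185). The call was kept without PGRN KO replicate 6 (log2 fold change 0.46, adjusted p 0.00153). Leaving out WT replicate 1, 2 or 3 ended it (0.0897, 0.0683 and 0.0717), as did applying no filter (0.0537), the lowest value over 17 alternatives being 0.000459. Ctsa overlaps Pltp (24.6 to 30.6 FPKM) and Neurl2 (0.938 to 2.77 FPKM) on the opposite strand. No source used here states whether strand was considered in counting.

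Both partners of cathepsin A in that complex passed the threshold, in opposite directions. Glb1, which encodes beta-galactosidase, rose from 31.4 ± 1.46 to 54.5 ± 7.43 FPKM (limma, log2 fold change 0.77, adjusted p 0.00577). Neu1, which encodes the lysosomal sialidase, fell from 66.6 ± 1.68 to 46.9 ± 5.21 FPKM (limma, log2 fold change -0.50, adjusted p 0.0153). The call of Neu1 was lost without WT replicates 1, 2 and 3 and PGRN KO replicate 4 (adjusted p 0.0699, 0.0720, 0.0669 and 0.0508), and that of Glb1 was kept in all 17 alternatives.

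Many lysosomal genes carry near their start a palindromic E-box bound by the transcription factors TFEB, TFE3, TFEC and MITF. The letters CACGTG, the longer form TCACGTGA and the related TCATGTGA were searched on both strands in windows from 250 bases before to 50 bases after annotated starts (RefSeq, GRCm38.p6). Every TCACGTGA match is also a CACGTG match. Windows were found for 8 members, 9 windows in all, Ctsb and Ctsh not being among them. CACGTG occurred in windows of 4 members (Ctsa, Ctsd, Ctsl and Ctsf) and in 7.15% of all 32851 windows. TCACGTGA occurred in 2 members (Ctsa and Ctsd) and in 0.974% of all windows, and TCATGTGA in 1 member (Ctss) and in 0.986% of all windows. Stretches of 60 bases around these matches are shown for all 5 members with a match. Of these, Ctsd and Ctsa rose, Ctsl and Ctss did not pass the threshold and Ctsf was not tested. The windows of Ctsk, which also rose, of Ctsc, which fell, and of Ctsz held no match. Capitals mark the matched letters, and each stretch is given 5′ to 3′ on the strand of its gene.
Ctsd, chr7:142387893-142387952, minus strand: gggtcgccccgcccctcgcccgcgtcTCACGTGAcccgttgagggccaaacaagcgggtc
Ctsa, chr2:164833742-164833801, plus strand: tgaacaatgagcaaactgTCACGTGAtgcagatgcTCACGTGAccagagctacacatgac
Ctsl, chr13:64370711-64370770, minus strand: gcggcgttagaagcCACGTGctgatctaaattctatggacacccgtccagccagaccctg
Ctsf, chr19:4855059-4855118, plus strand: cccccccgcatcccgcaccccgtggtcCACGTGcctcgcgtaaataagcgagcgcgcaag
Ctss, chr3:95526776-95526835, plus strand: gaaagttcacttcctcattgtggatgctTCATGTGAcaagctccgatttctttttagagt

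Counted from the annotated start, the Ctsd match begins at base -99. In Ctsa the pair of matches lies at the second of 2 annotated starts, beginning at bases -13 and 5. Ctsd holds a further CACGTG at base -245. These matches are descriptions of sequence and were not tested for binding. Of the 4 factors named above, Tfeb was too low to be tested, at 0.391 to 0.727 FPKM. None of the other 3 passed the threshold with limma. An unadjusted p under 0.05 was found for 2 of them, in opposite directions (log2 fold change -0.23 for Tfe3 and 0.29 for Tfec). The share of all tested genes past that unadjusted threshold was not counted. Tfe3 averaged 5.92 ± 0.194 FPKM among WT and 4.89 ± 0.294 FPKM among PGRN KO libraries (adjusted p 0.0894), and was lower past the threshold without PGRN KO replicate 6 (0.0477) and with sample quality weights (0.0268), the range over 17 alternatives being 0.0268 to 0.522. Tfec was at 1.40 ± 0.225 and 1.93 ± 0.0358 FPKM (adjusted p 0.0793), and was higher past the threshold with voom on recovered fragments (0.0332), with sample quality weights, with the sum of fragments as library size and with the length correction. Mitf was at 4.38 ± 0.402 and 4.99 ± 0.736 FPKM (adjusted p 0.391), and was higher past the threshold with sample quality weights (0.0309) and with the length correction when PGRN KO replicate 6 was left out (0.0319).

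Among the tested cysteine members, Ctsk showed the largest increase. Ctsk (ENSMUSG00000028111, chromosome 3, 95499256 to 95509362) encodes the collagen-cleaving cathepsin known best from osteoclasts. It was at 105, 109 and 115 FPKM in WT and at 160, 168 and 217 FPKM in PGRN KO, without overlap. The mean rose 1.65-fold from 110 ± 4.95 to 182 ± 30.8 FPKM (limma, log2 fold change 0.71 ± 0.13, adjusted p 0.0117). The call was kept without PGRN KO replicate 6 (log2 fold change 0.57, adjusted p 0.00128), and it was lost without WT replicates 1 and 2 (0.0643 and 0.0545), the only 2 of 17 alternatives in which it did not pass.

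Ctss (ENSMUSG00000038642, chromosome 3, 95526786 to 95556403), the next gene on the same strand, starts 17423 bases beyond the end of Ctsk, with no other gene of the table between them. It encodes cathepsin S, which trims the invariant chain of MHC class II molecules. Ctss was at 2807, 2902 and 2721 FPKM in WT and at 2647, 2616 and 3444 FPKM in PGRN KO. The groups overlapped, since replicates 4 and 5 lay below all WT libraries and replicate 6 above them. The log2 fold change was 0.04 ± 0.14 (95% interval -0.31 to 0.38, limma adjusted p 0.876), and without PGRN KO replicate 6 it was -0.09 (adjusted p 0.253). The ratio of Ctsk to Ctss within a library was 0.0375 to 0.0423 in WT and 0.0605 to 0.0641 in PGRN KO. Cd74, which encodes the invariant chain, fell from 768 ± 33.0 to 462 ± 121 FPKM (limma, log2 fold change -0.76, adjusted p 0.0252). That call was lost in each fit without 1 library other than PGRN KO replicate 6 (adjusted p 0.0633 to 0.0972), as well as without a filter (0.0816), and without replicate 6 it was kept (0.000486).

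Ctsb (ENSMUSG00000021939, chromosome 14, 63122462 to 63145923) encodes cathepsin B, an endopeptidase that also removes dipeptides from the carboxyl end. It was at 1205, 1231 and 1213 FPKM in WT and at 1614, 1589 and 2037 FPKM in PGRN KO. No PGRN KO value reached down to WT, and the mean rose 1.44-fold from 1217 ± 13.3 to 1746 ± 252 FPKM (limma, log2 fold change 0.51 ± 0.13, adjusted p 0.0317). Ctsb lost its call without WT replicates 1, 2 and 3 (0.132, 0.102 and 0.0964), without PGRN KO replicate 4 (0.0630) and without a filter (0.131), whereas it was 0.00260 without PGRN KO replicate 6. The lowest adjusted p over 17 alternatives was 0.00106. Ctsb overlaps Fdft1 (1.20 to 1.90 FPKM), a gene on the opposite strand, over 774 bases.

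Ctsz (ENSMUSG00000016256, chromosome 2, 174427493 to 174439039), which encodes a lysosomal carboxypeptidase also called cathepsin X, was at 1098, 1147 and 1156 FPKM in WT and at 1307, 1249 and 2066 FPKM in PGRN KO. The groups did not overlap, but replicate 6 was 1.62 times the mean of replicates 4 and 5. The log2 fold change was 0.40 ± 0.20 (95% interval -0.069 to 0.88), with a limma adjusted p of 0.179. Without replicate 6 the fold change was smaller and the spread narrower, at 0.17 ± 0.056 with an adjusted p of 0.0527. In 4 of the 17 alternatives Ctsz passed, the adjusted p ranging from 0.0239 to 0.389.

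Ctsc (ENSMUSG00000030560, chromosome 7, 88278085 to 88310888) was the member that fell. It encodes dipeptidyl peptidase I, which activates the serine proteases of neutrophil, mast cell and cytotoxic granules. Ctsc was at 70.5, 72.9 and 66.1 FPKM in WT and at 48.5, 44.5 and 46.2 FPKM in PGRN KO. All PGRN KO libraries were below all WT libraries, and replicate 6 lay between replicates 4 and 5. The mean fell from 69.8 ± 3.47 to 46.4 ± 2.01 FPKM. In the limma fit the log2 fold change was -0.58 ± 0.086 and the adjusted p 0.00571. Ctsc kept its call in all 17 alternatives, with adjusted p from 0.000231 to 0.0447 and log2 fold changes from -0.62 to -0.48. For the 4 members that rose, in contrast, at least 2 alternatives each ended the call.

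Neither Ctsl nor Ctsh differed past the threshold. Ctsl (ENSMUSG00000021477, chromosome 13, 64359337 to 64370890), which encodes the endopeptidase cathepsin L, was at 263, 273 and 253 FPKM in WT and at 278, 265 and 321 FPKM in PGRN KO, with overlapping groups. Its log2 fold change was 0.12 ± 0.11 (95% interval -0.13 to 0.38, limma adjusted p 0.424). Ctsh (ENSMUSG00000032359, chromosome 9, 90054152 to 90076089), which encodes an aminopeptidase, was at 26.3, 27.7 and 28.6 FPKM in WT and at 27.1, 26.0 and 37.1 FPKM in PGRN KO. Replicate 6 lay above and replicates 4 and 5 within or just below the WT values. The log2 fold change of Ctsh was 0.11 ± 0.14 (95% interval -0.23 to 0.44, limma adjusted p 0.611), and its direction turned without replicate 6 (-0.05, adjusted p 0.524).

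Ctsf (ENSMUSG00000083282, chromosome 19, 4855129 to 4860912) rested on 13, 14 and 17 fragments in WT and 20, 15 and 52 fragments in PGRN KO. This corresponded to 0.393 to 0.479 FPKM in WT and 0.401 to 1.52 FPKM in PGRN KO, the high value being that of replicate 6. Ctsf was left out of the test by the filter, and an exact two-sided permutation test of its 6 values gave p = 0.3. The same exact permutation test gave p = 0.1, the smallest possible for 3 against 3 libraries, for Ctsa, Ctsb, Ctsc, Ctsd, Ctsk and Ctsz.

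**Figure D2:**
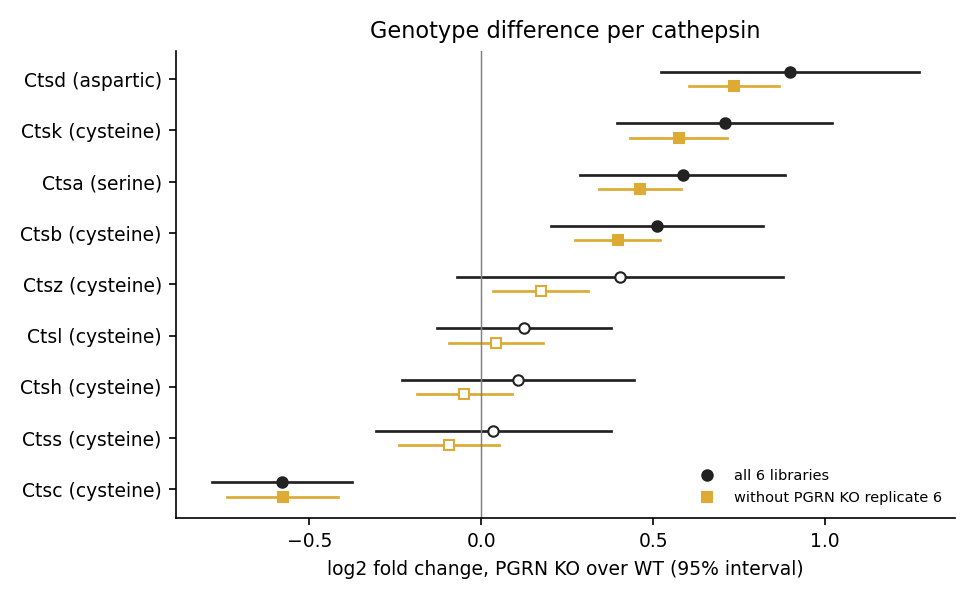
Log2 fold change (PGRN KO over WT, on the log2(FPKM + 1) scale) of the 9 tested cathepsins with their class, fitted with limma on all 6 libraries (circles) and without PGRN KO replicate 6 (squares). Bars are 95% intervals and filled symbols have an adjusted p under 0.05. The same 5 genes are filled in both fits, and intervals are narrower without replicate 6.

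By class, the aspartic and the serine member rose, and of the 7 tested cysteine members 2 rose, 1 fell and 4 did not pass. The median log2 fold change of these 7 was 0.12 (range -0.58 to 0.71). Of all tested genes, 10.4% were higher and 13.8% lower, with a median of -0.031. With 1 gene each, the aspartic and serine classes allow no comparison between classes beyond these values. Levels per length ran in WT from Ctss over Ctsd, Ctsb, Ctsz, Ctsl, Ctsa, Ctsk, Ctsc and Ctsh to Ctsf, and no neighbours in this order overlapped in their WT range. In PGRN KO the order was the same except that Ctsa (348 FPKM) preceded Ctsl (288 FPKM). There the ranges of Ctss and Ctsd, of Ctsb and Ctsz, and of Ctsa and Ctsl overlapped across libraries. Overlapping ranges do not compare 2 genes within a library. Ctss exceeded Ctsd and Ctsa exceeded Ctsl within each of the 3 libraries, and Ctsb exceeded Ctsz in 2 of them. Such an order depends on the gene models, which ranged from 1358 bases for Ctss to 6489 bases for Ctsl. In fragments, Ctsb exceeded Ctss in every library (110197 to 212985 against 58277 to 80830).

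The share of each member in the summed FPKM of all 10 cathepsins does not depend on how libraries are scaled. The 10 genes together made up 1.81% to 1.99% of all FPKM in WT and 2.45% to 2.81% in PGRN KO, without overlap. Within this pool, the contribution of Ctsd was 19.0% ± 0.151 among WT and 26.7% ± 0.692 among PGRN KO libraries (SD, n = 3 each). Ctss contributed 38.8% ± 0.630 and 30.1% ± 0.767. The cysteine members together therefore made up 77.9% ± 0.132 of the pool in WT and 69.7% ± 0.680 in PGRN KO. The serine member Ctsa contributed 3.18% ± 0.0255 and 3.61% ± 0.126. Shares of Ctsd, Ctsa, Ctsb and Ctsk were higher and those of Ctss, Ctsl, Ctsh and Ctsc lower in PGRN KO, without overlap. Shares add up to the whole pool, so that a larger share of Ctsd lowers other shares even where levels do not fall. Lower shares of Ctss, Ctsl and Ctsh are thus no evidence of lower levels, and their log2 fold changes were 0.04, 0.12 and 0.11. The shares of Ctsf and Ctsz overlapped between genotypes. Ctsz contributed 15.3% to 16.2% in WT and 14.5% to 17.5% in PGRN KO.

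Ratios within a library restate the same FPKM values for single pairs and are no separate evidence. Each pair sets a member that rose or fell against a member that did not pass or went the other way. Ctsd was 0.479 to 0.499 times the level of Ctss in WT and 0.846 to 0.931 times in PGRN KO. Ctsa was below Ctsl in every WT library (ratio 0.861 to 0.894) and above it in every PGRN KO library (1.13 to 1.28). Ctsc was 0.0545 to 0.0592 times the level of Ctsb in WT and 0.0227 to 0.0300 times in PGRN KO. PGRN KO replicate 6 lay on the side of replicates 4 and 5 in each of these ratios.

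**Figure D3:**
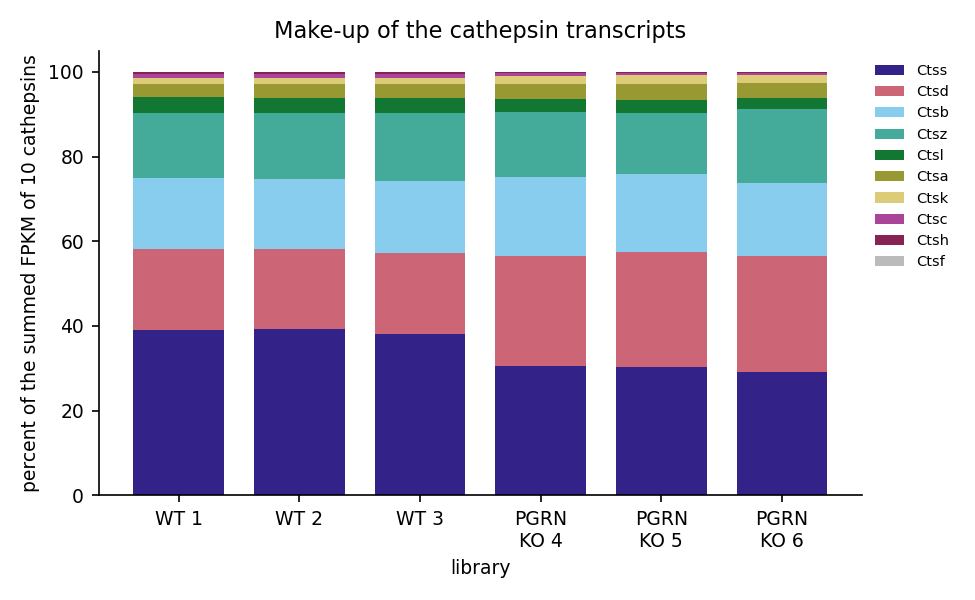
Share of each cathepsin in the summed FPKM of the 10 genes, in percent, for each library. The 3 WT bars resemble each other, as do the 3 PGRN KO bars, in which Ctsd takes up 25.9% to 27.2% against 18.8% to 19.1% in WT, while Ctss takes up less.

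Since replicate 6 was the highest PGRN KO library for 9 of the 10 members, its deviation was set beside that of all genes of like length. Among all tested genes, the median difference between replicate 6 and the mean of replicates 4 and 5 on the log2(FPKM + 1) scale was 0.44 for gene models of 943 to 1776 bases and -0.39 for those of at least 9218 bases. The short models Ctss and Ctsk deviated by 0.39 and 0.40, close to the median of 0.44 for their length. Ctsz, with 1441 bases, deviated by 0.69, and Ctsd, with 2351 bases, by 0.49 beside a median of 0.30. The long models Ctsb, Ctsl and Ctsa deviated by 0.35, 0.24 and 0.37, where medians for their lengths were -0.15, -0.15 and -0.053, and Ctsc deviated by -0.0075. With each library corrected for gene length, the log2 fold changes were 0.83 for Ctsd, 0.61 for Ctsa, 0.60 for Ctsk, 0.58 for Ctsb and -0.52 for Ctsc, and all 5 passed the threshold.

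**Figure D4:**
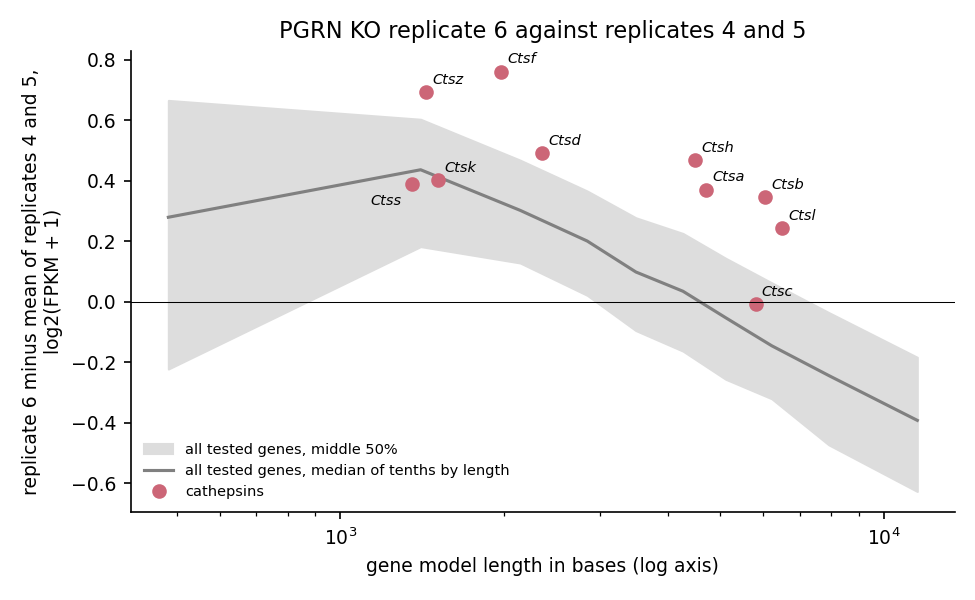
Difference between PGRN KO replicate 6 and the mean of replicates 4 and 5 on the log2(FPKM + 1) scale against gene model length (log axis). The line and band are the median and middle 50% of all tested genes in 10 bins by length, and points are the 10 cathepsins. Ctsk, Ctss and Ctsc lie within the middle 50% for their length and the other 7 cathepsins above it.

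Next, genes that act on or beside the cathepsins were examined. Of 13 further cathepsin genes, 9 were at 0 in all libraries, namely the cathepsin L-related genes clustered on chromosome 13 (Cts3, Cts6, Cts7, Cts8, Ctsj, Ctsm, Ctsq, Ctsr and Ctsll3). The neutrophil and mast cell protease gene Ctsg was at 0 except in PGRN KO replicate 6 (0.0560 FPKM). Only Ctso and Ctsw reached a mean of 1 FPKM, and Ctsw did so only through its level in PGRN KO. Ctsw, known from cytotoxic lymphocytes, was at 0.679, 0.659 and 0.810 FPKM in the WT replicates and between 1.24 and 1.69 FPKM in the PGRN KO replicates, without overlap. Since the filter favoured a difference in this gene, its value is that of the fit with no filter, where it did not pass (limma adjusted p 0.0534). Ctso, a widely expressed cysteine cathepsin, was at 2.94 ± 0.264 and 3.93 ± 0.453 FPKM (limma adjusted p 0.0670). It was higher past the threshold in 5 of 16 alternatives, among them the fit without PGRN KO replicate 6 (0.0207), the range being 0.0123 to 0.196.

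Of 12 genes listed as inhibitors, 6 were tested, of which 2 rose and 0 fell, beside 10.4% and 13.8% of all tested genes. Cst7, which encodes cystatin F, an inhibitor of cathepsins including dipeptidyl peptidase I, was at 5.27, 3.84 and 4.72 FPKM in WT and at 16.7, 15.9 and 25.2 FPKM in PGRN KO. It thus rose 4.18-fold (limma, log2 fold change 1.83 ± 0.19, adjusted p 0.00185), the largest change among the genes of these lists after Grn. Serpinb6a, which encodes an intracellular serpin, rose from 14.2 ± 0.472 to 29.4 ± 7.46 FPKM (limma, log2 fold change 0.97, adjusted p 0.00867). Whether this serpin inhibits any of the cathepsin members was not examined. The other abundant cystatin genes did not pass. Cst3, which encodes the secreted cystatin C, was at 410 ± 1.51 and 506 ± 130 FPKM (adjusted p 0.290, and 0.0330 with quantile normalization). Cstb, which encodes the cytosolic inhibitor stefin B, was at 972 ± 50.8 and 884 ± 142 FPKM (adjusted p 0.465), and Stfa3 was at 41.2 ± 1.39 and 31.7 ± 5.87 FPKM (adjusted p 0.0833). Without PGRN KO replicate 6 Cstb and Stfa3 were lower past the threshold (log2 fold changes -0.27 and -0.52, adjusted p 0.0206 and 0.00344).

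All 6 other lysosomal peptidases were tested, of which 2 rose and 1 fell, beside the same shares of all tested genes. Dpp7, which encodes a dipeptidyl peptidase, rose from 34.7 ± 1.75 to 58.5 ± 11.3 FPKM (limma, log2 fold change 0.72, adjusted p 0.0134), and Tpp1, which encodes a tripeptidyl peptidase, from 63.3 ± 3.37 to 85.3 ± 9.26 FPKM (0.42, 0.0330). Prcp, which encodes a prolylcarboxypeptidase, fell from 13.8 ± 0.478 to 10.05 ± 0.527 FPKM (-0.42, 0.0144). These 3 calls were each lost without WT replicate 1, 2 or 3 (adjusted p 0.0524 to 0.0677 for Dpp7, 0.0886 to 0.126 for Tpp1 and 0.0541 to 0.0786 for Prcp), and that of Tpp1 also without PGRN KO replicate 4 (0.0934) or 5 (0.0853). The call of Prcp was lost as well with the sum of fragments as library size (0.0528) and on a TPM scale (0.0923), and that of Tpp1 on a TPM scale (0.0707), with quantile normalization (0.0556) and without a filter (0.0686). Lgmn, which encodes the asparaginyl protease legumain that processes several cathepsins, was at 179 ± 2.09 and 198 ± 34.8 FPKM (adjusted p 0.515).

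Of 6 genes for mannose 6-phosphate tagging and sorting, 1 passed the threshold, which is no larger a share than the 24.2% of all tested genes. The gene that passed rose, as did 10.4% of all tested genes. Sort1, which encodes sortilin, a receptor for progranulin and for lysosomal proteins, was at 2.05, 1.83 and 1.98 FPKM in WT and at 4.20, 4.34 and 3.59 FPKM in PGRN KO libraries (limma, log2 fold change 0.77 ± 0.098, adjusted p 0.00352). The mannose 6-phosphate receptor genes M6pr (182 ± 5.77 and 185 ± 14.8 FPKM) and Igf2r (25.1 ± 1.32 and 21.8 ± 6.24 FPKM) did not pass, with adjusted p of 0.924 and 0.438. Gnptg, at 6.65 ± 1.18 and 9.70 ± 1.48 FPKM, was higher in PGRN KO without overlap but did not pass (limma adjusted p 0.0522). It was higher past the threshold in 6 of 17 alternatives, the range being 0.00912 to 0.176. Psap, which encodes prosaposin, a substrate of cathepsin D and a binding partner of progranulin, was at 2113, 2136 and 2181 FPKM in WT and at 3877, 3865 and 4798 FPKM in PGRN KO. Psap thus rose 1.95-fold, by 0.96 ± 0.13 on the log2 scale (limma adjusted p 0.00452). Cst7, Serpinb6a, Sort1 and Psap kept their calls in every alternative in which they were tested.

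**Figure D5:**
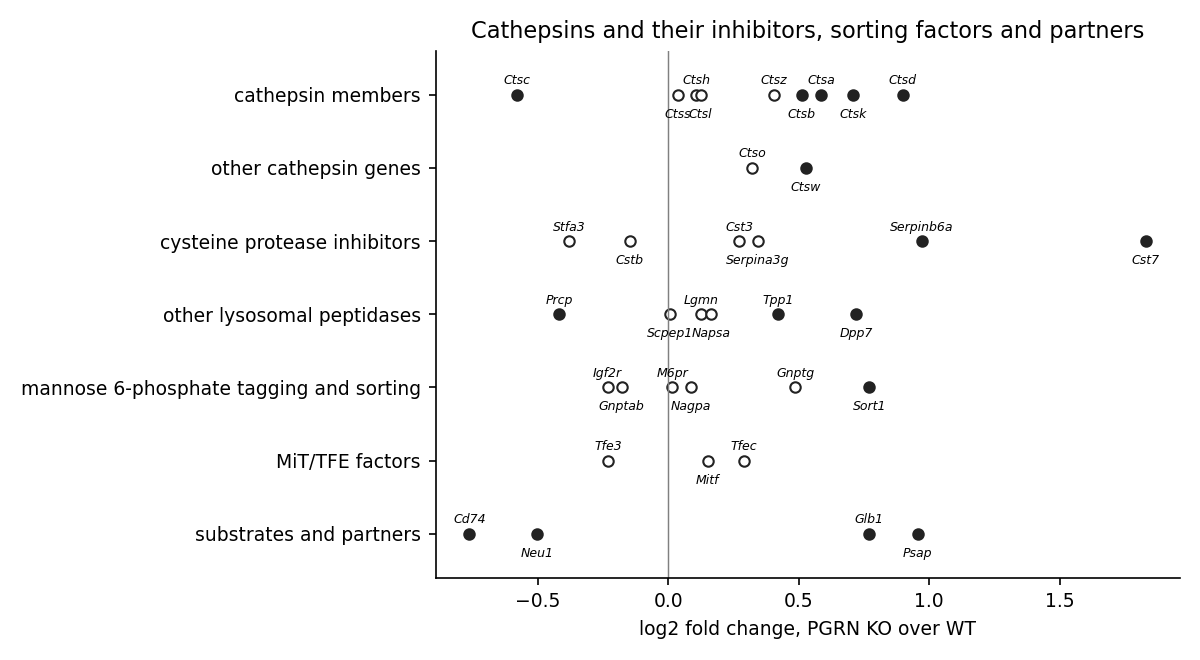
Log2 fold change (PGRN KO over WT, log2(FPKM + 1) scale) of the tested members and of tested genes in 6 lists of related genes. Filled circles have a limma adjusted p under 0.05. Grn is left out of the plot, and Ctsw is plotted as fitted with the filter on low values. Filled genes lie on both sides of 0, with Cst7 farthest to the right at 1.83.

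Markers of other cells were measured beside these results, and their part in them was not tested. In bulk libraries, more cells of a type cannot be told apart from more RNA per cell. Mast cell markers summed to 2.23 to 3.19 FPKM in WT and 9.31 to 13.9 FPKM in PGRN KO. Of the 5 genes, Tpsb2, Cma1, Cpa3 and Mcpt4 were higher in PGRN KO without overlap, whereas Kit, the receptor that defines these cells, averaged 0.345 FPKM among WT and 0.210 FPKM among PGRN KO libraries with overlapping groups. B cell markers summed to at most 2.50 FPKM in WT and to 6.62 to 8.92 FPKM in PGRN KO, and all 5 were higher without overlap. Fibroblast and mesothelial markers summed to 0.817 to 0.947 FPKM in WT and 1.70 to 3.09 FPKM in PGRN KO. There the fibroblast genes Col1a1, Col3a1 and Dcn were higher without overlap, and the mesothelial genes Msln and Upk3b were at 0.141 FPKM or less in every library, with lower means in PGRN KO and overlapping groups. These 3 sums moved in the direction of Ctsd, Ctsk, Ctsa and Ctsb. Dendritic cell markers summed to 27.4 to 34.6 FPKM in WT and 15.9 to 19.3 FPKM in PGRN KO, in the direction of Ctsc and Cd74, and this sum was nearly all Ccr7 (means of 28.9 and 16.6 FPKM). Of the other dendritic cell genes, Xcr1 and Flt3 were lower in PGRN KO without overlap, and Zbtb46 (0.550 and 0.698 FPKM) and Clec9a (0.0361 and 0.0560 FPKM) had higher means with overlap. T and NK cell markers summed to 1.88 to 2.64 and 2.25 to 4.22 FPKM, with overlap. Of these genes, Gzma and Cd3e were higher in PGRN KO without overlap, and Cd3g, Trac and Ncr1 overlapped. Neutrophil markers summed to at most 0.487 FPKM in any library, Ly6g and Elane being at 0 in all of them. Among macrophage markers, Csf1r fell (limma, log2 fold change -0.38, adjusted p 0.0178) and Mertk rose (0.81, 0.00640). Adgre1, Cd68, Itgam and Lyz2 did not pass (adjusted p 0.591, 0.808, 0.0848 and 0.400). Without overlap, Itgam was lower and Lyz2 higher in PGRN KO. Itgam was lower past the threshold in some alternatives, among them the fit without PGRN KO replicate 6 (0.00677). The call of Csf1r was lost without WT replicates 1, 2 and 3 and PGRN KO replicate 4 (adjusted p 0.0600 to 0.101), with the sum of fragments as library size (0.0856) and on a TPM scale (0.106). Of the large peritoneal macrophage markers, Icam2 rose (limma, log2 fold change 0.57, adjusted p 0.00914) and kept its call in all 16 alternatives. Gata6 did not pass (adjusted p 0.367), Timd4 was lower in PGRN KO without overlap, and Selp overlapped.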

How the data were processed

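RNA sequencing libraries of 3 WT and 3 PGRN KO samples were grouped by their titles. The authors removed reads of low quality or with adaptor, aligned with HISAT, counted fragments per gene and deposited FPKM values per gene and library. The methods name HTSeq for counting, whereas the submitters' processing notes name HISAT2 2.0.5 and featureCounts 1.5.0-p3, with builds mm10 and GRCm38. In all, 98.04% of the 54532 genes, and all members but Ctsf, had the same coordinates as in GENCODE M21 (GRCm38). FPKM times gene length gave whole fragments in each library (100% of values above 0, tolerance 0.001), and the authors' divisor was the median-ratio size factor times a constant.

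Genes with a mean of at least 1 FPKM entered the test as log2(FPKM + 1), which understates changes of low genes, fitted with limma 3.58.1 in R 4.3.3 (mean-variance trend, no covariates, two-sided, Benjamini-Hochberg adjustment over all 8882 tested genes, threshold 0.05). The test was checked on simulated counts that had the same dispersion for every gene. The simulation held no length-dependent shift like that of PGRN KO replicate 6, so that it cannot show how the test behaves with such a library. Named genes were all 10 members and lists of related genes and cell type markers. Members and lists were chosen with earlier results of these data known. Alternatives were a pseudocount of 0.1, no filter, a mean of at least 5 FPKM, a TPM scale, quantile normalization, the sum of fragments as library size, sample quality weights, a loess correction for gene length (span 0.5), voom on recovered fragments, no variance trend, and leaving out each library.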

Additional observations from a re-analysis of the deposited data

How the results depend on the processing

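No paired analysis was possible because the labels number WT libraries 1 to 3 and PGRN KO libraries 4 to 6. The combination of the gene length correction with leaving out PGRN KO replicate 6 was chosen after seeing the data. The number of cathepsins that rose, 4, was 1 when no filter was applied and 22912 genes were tested, and 0 to 4 with each library left out. The number that fell was 1 in every alternative. Among the alternatives, the share of all tested genes called was counted only without PGRN KO replicate 6. A loss of cathepsin calls in the other fits thus cannot be told apart from a general loss of calls. Leaving out a WT library ended 2 to 4 of these calls, while the log2 fold changes of the 4 genes stayed between 0.51 and 0.91. Without PGRN KO replicates 4, 5 and 6 the number that rose was 3, 4 and 4, respectively. With all 17 alternatives and 9 tested members, 129 of 153 values kept direction and call, 13 lost the call and 4, all of Ctsz, gained it. The other 7 changed sign and were not significant in either direction. Ctsh was -0.0033 with sample quality weights, which gave PGRN KO replicate 6 a weight of 0.0899, -0.049 without that replicate and -0.020 with the length correction added. Ctss was -0.082, -0.094 and -0.080 in the same settings and -0.073 with the length correction alone. With each library left out, Ctsh ranged from -0.049 to 0.20 and Ctss from -0.094 to 0.10. The cause of these changes was not tested. Depth limits Ctsf alone among the members, which had at most 52 fragments in a library.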
